A study of Rattus norvegicus with 8 samples.

Results

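The genes Fos, Fosb, Fosl2, Jun, Junb, Jund and Atf3 encode transcription factors of the AP-1 family, and their signals were followed over 8 one-colour Affymetrix arrays of rat ovarian granulosa cell RNA. They were chosen by name, as every probe set whose platform annotation gave exactly 1 of these 7 symbols, which took 13 of 31042 non-control probe sets and 7 of 14217 named genes. Granulosa cells line the follicle around the oocyte and produce oestradiol. Immature rats had received eCG, a hormone that makes follicles grow. After 24 h they got an anti-eCG antibody, which drives follicles into atresia, or else pre-immune serum. Strain, age in days and the number of animals behind an array were not found in the labels. The titles of the 8 arrays differ only in a number, so no array could be placed in either group and no comparison between the treatments was made.

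AP-1 factors carry a basic leucine zipper, with which they pair and bind DNA. FOS proteins pair only with partners such as JUN proteins, whereas JUN proteins also pair with each other, and ATF3 pairs with JUN proteins or with itself. Several members, such as Fos, Fosb, Junb and Atf3, are immediate-early genes, switched on within minutes by growth factor, gonadotropin or stress signals. In rat granulosa cells several AP-1 genes respond to gonadotropins, and the JUND and FOSL2 proteins are known to persist when the cells luteinize.

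Each array was a single hybridisation with no group, so a value has no replicate error, and what follows gives values and their spread without tests. Arrays are named by their label numbers, and 8 values in a row belong to arrays 2074, 2076, 2194, 2195, 2196, 2197, 2198 and 2199 in turn. Signals are in scaled units on a linear scale. The spread of a gene is given as its inner range, for which the top and bottom arrays are set aside and the highest remaining signal is divided by the lowest remaining one. Signals under the 40th percentile of an array, called the floor, were raised to it before ranges were taken. The floor lay between 272.5 and 470.9 over arrays and was highest on array 2195. All 7 genes counted as measured, meaning that 2 or more arrays showed them above the array-wide median, but only 11 of their 13 probe sets did. In bulk RNA, fewer cells of a type and less RNA per cell cannot be told apart.

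The label of the tissue was checked against markers of granulosa and of other ovarian cells. Of 10 granulosa markers 9 were measured, and 1 of the 9 was at the floor on any array. No probe set with a single name was listed for Fshr. At the floor on 1 array or more were 6 of 8 measured theca and stroma markers, 3 of 4 endothelial, 4 of 6 leukocyte and macrophage, 2 of 3 erythroid and 2 of 2 oocyte markers, out of 10, 8, 10, 7 and 10 listed. The pan-leukocyte gene Ptprc was not measured. The summed signal of a list is followed only over arrays, since different probe sets have no common scale. It ran from 380772 to 515934 for granulosa, 3448 to 7963 for theca and stroma, 1240 to 3887 for endothelial, 5492 to 9174 for leukocyte and macrophage and 259 to 1878 for oocyte markers. Erythroid markers ran from 4280 to 48924 and were highest on array 2074, where the main probe sets of Fos, Fosb and Jun were at their lowest. The part of blood cells in those values was not tested.

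Of the members, 3 of 7 reached an inner range of 2-fold, which were Junb, Fosb and Atf3. The same held for 29.8% of the 10513 measured genes. Counted by probe set it was 5 of 11 for the members and 31.7% of all 14058 measured probe sets with a name. The members' median inner range was 1.91-fold, against 1.71-fold over all measured genes. Over all 8 arrays and with this floor the highest inner range was that of Junb and the lowest that of Jund, so their start regions are shown for orientation. The order depended on the settings. Atf3, given here as a bound, was at 5.05-fold with a floor at the 25th percentile, against 3.33-fold for Junb, and Jun was at 1.405-fold without array 2196 or 2199, against 1.67-fold and 1.51-fold for Jund. With the mean of probe sets Fos was at 1.502-fold and Jund at 1.67-fold. They are RefSeq sequences of the GRCr8 assembly, 250 bases before and 50 after the annotated start. Capitals mark matches on either strand to the cAMP response element TGACGTCA, its core TGACG, the box CCAAT and the TATA box TATAAA. The Junb window is chr19:40080876-40081175 on the plus strand and the Jund window chr16:18769722-18770021 on the minus strand.
Junb: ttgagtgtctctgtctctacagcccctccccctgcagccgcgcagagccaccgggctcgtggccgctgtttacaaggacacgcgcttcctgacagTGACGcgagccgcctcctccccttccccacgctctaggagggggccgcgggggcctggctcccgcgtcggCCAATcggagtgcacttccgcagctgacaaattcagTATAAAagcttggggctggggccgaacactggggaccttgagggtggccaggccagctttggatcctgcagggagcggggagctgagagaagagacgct
Jund: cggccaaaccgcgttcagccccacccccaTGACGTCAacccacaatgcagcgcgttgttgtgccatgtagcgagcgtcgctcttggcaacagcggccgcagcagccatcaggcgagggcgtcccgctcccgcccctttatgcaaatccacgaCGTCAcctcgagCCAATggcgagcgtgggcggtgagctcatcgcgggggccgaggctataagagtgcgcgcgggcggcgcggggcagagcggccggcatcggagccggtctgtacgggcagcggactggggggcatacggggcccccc

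The Jund window held 1 whole cAMP response element, 221 bases before the start, another core match 98 bases and a CCAAT match 86 bases before it. The whole element was found in 1.83% of 33469 RefSeq start windows of the same length, and the core, which lies inside it on both strands, in 21.2%. The Junb window held 1 core match, 155 bases before the start, with a CCAAT match 85 bases and a TATAAA match 49 bases before it. CCAAT was found in 37.5% and TATAAA in 14.2% of all windows. Of the 7 members, 4 were in the sequence table. The Fosb window held a TATAAA match and the Fosl2 window none of the capitalised motifs. The GC box GGGCGG, found in 33.1% of all windows and left in lower case, occurred in the Jund and Fosl2 windows. Neither the AP-1 element TGANTCA, in 7.33% of all windows, nor the CArG box, the core of the serum response element, in 1.64%, was found in any of the 4. These matches describe letters in a window and say nothing of binding.

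Fos encodes the founding FOS protein. Its brightest probe set, 1375043_at, gave 1347, 3623, 3362, 2135, 6505, 4084, 3606 and 2674. Array 2196 stood highest and array 2074 lowest, and 4 arrays lay close together between 3362 and 4084. The inner range was 1.91-fold and the full range 4.83-fold, and 65.0% of measured genes had a narrower inner range. A second Fos probe set, 1371283_at, was dim. It ran from 26.7 on array 2076 to 629.3 on array 2198 and lay at or under the floor on 3 arrays, so its order over arrays was not read.

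Fosb, whose protein is a close relative of FOS, was dim on most arrays and bright on few. Its only probe set, 1373759_at, gave 218.1, 456.4, 361.4, 985.2, 1966, 357.0, 723.1 and 347.1. Array 2196 was highest, followed by 2195 and 2198, and array 2074 was at the floor. The inner range was 2.84-fold and the full range 6.51-fold, and 93.4% of measured genes were narrower. After quantile normalization, which removes the raised low end of array 2195, the inner range was 2.08-fold. The distance of Fosb from its median on array 2195 was then 0.67 on the log2 scale, against 1.28 before.

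Fosl2, the gene of the FOS-related antigen FRA2, was measured on all 8 arrays. Its brighter probe set, 1383860_at, gave 1162, 1253, 507.6, 1611, 860.0, 689.9, 1117 and 801.7. Here array 2195 was highest and array 2194 lowest, while array 2196, the highest for Fos and Fosb, lay below the median. The inner range was 1.82-fold. The other Fosl2 probe set, 1387530_a_at, linked to a RefSeq mRNA, gave at most 667.1, on array 2076, and was at or under the floor on 4 arrays.

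Jun encodes the founding JUN protein, and its 3 measured probe sets disagreed. The brightest, 1369788_s_at, gave 3417, 4000, 3978, 5341, 6717, 4840, 5588 and 7005, lowest on array 2074 and highest on array 2199, with an inner range of 1.69-fold. The next, 1389528_s_at, gave 3168, 4568, 2352, 539.4, 2699, 799.9, 1499 and 1915. It was highest on array 2076 and lowest on array 2195, with an inner range of 3.96-fold. The third, 1374404_at, gave 967.2, 1465, 999.8, 317.3, 966.2, 477.4, 1540 and 1660, with an inner range of 3.23-fold and array 2195 at the floor. The 2 dimmer probe sets, linked to the same accession in the annotation, shared their lows on arrays 2195 and 2197, where the brightest one was near its median. The spread of Jun over arrays therefore depended on the probe set, and the mean of all 3 had an inner range of 2.29-fold.

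Junb, whose protein can restrain or replace JUN in AP-1 dimers, was high on few arrays. Its only probe set, 1387788_at, gave 1745, 3713, 920.2, 1492, 2063, 1080, 3061 and 830.7. Arrays 2076 and 2198 stood above the others, and arrays 2199, 2194 and 2197 were lowest. The inner range was 3.33-fold and the full range 4.47-fold, and 96.7% of measured genes were narrower. Without array 2076, or without array 2198, it was 2.24-fold, below the 2.84-fold of Fosb on the same arrays.

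Jund encodes the JUN protein that is abundant in many resting cells. Its brightest probe set, 1393138_at, gave 43082, 65020, 53238, 78069, 57650, 52124, 39014 and 32622. Array 2195 was highest and array 2199 lowest, and the inner range was 1.67-fold. This probe set has no accession in the platform annotation. The Jund probe set linked to a RefSeq mRNA, 1387762_s_at, was above its array's median on 1 of 8 arrays and at or under the floor on 6, and the remaining one, 1375768_at, was above it on none. Neither counted as measured, so the Jund values rest on a probe set that the other 2 do not bear out.

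Atf3, a stress-induced factor that can repress AP-1 sites, was above the array's median on 4 arrays and at or under the floor on the other 4. Its probe set, 1369268_at, gave 28.0, 477.0, 78.0, 805.5, 561.2, 267.2, 869.1 and 269.5. Arrays 2198 and 2195 were highest, then 2196 and 2076. The inner range was at least 2.67-fold, a bound because the second lowest array had been raised to the floor. The bound was 1.86-fold without array 2195 or without array 2198, and 1.88-fold after quantile normalization. Its full range of 3.19-fold is likewise limited by the floor.

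**Figure D1:**
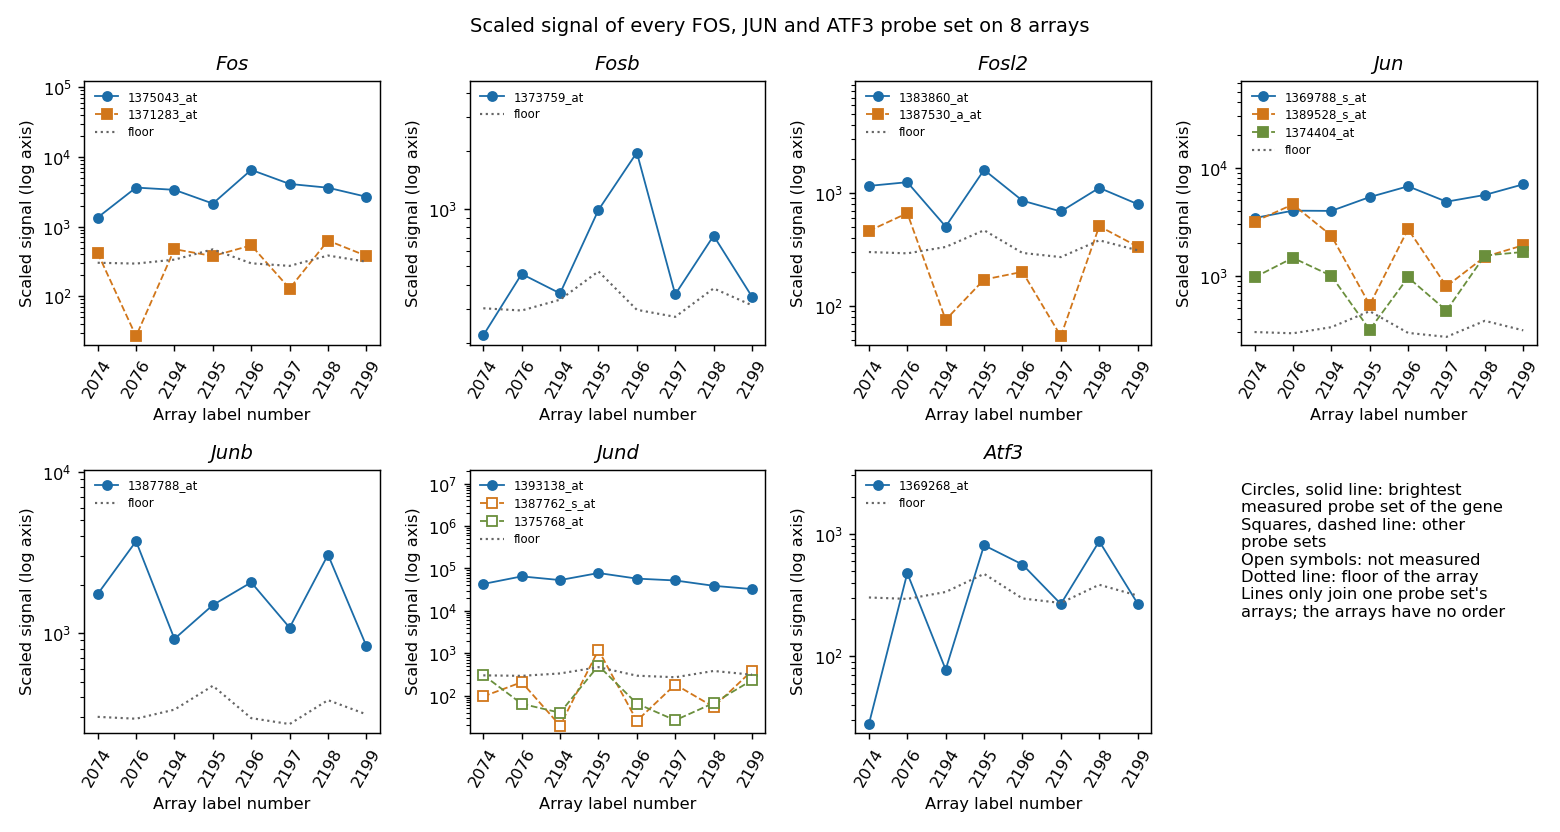
Scaled signal (log axis) of all 13 probe sets of the 7 genes on each of the 8 arrays. The brightest measured probe set of a gene is drawn as circles, the others as squares, open where not measured, and the dotted line is the array's floor. Atf3 is at or under the floor on 4 arrays, and the 3 Jun probe sets take different courses.

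**Figure D2:**
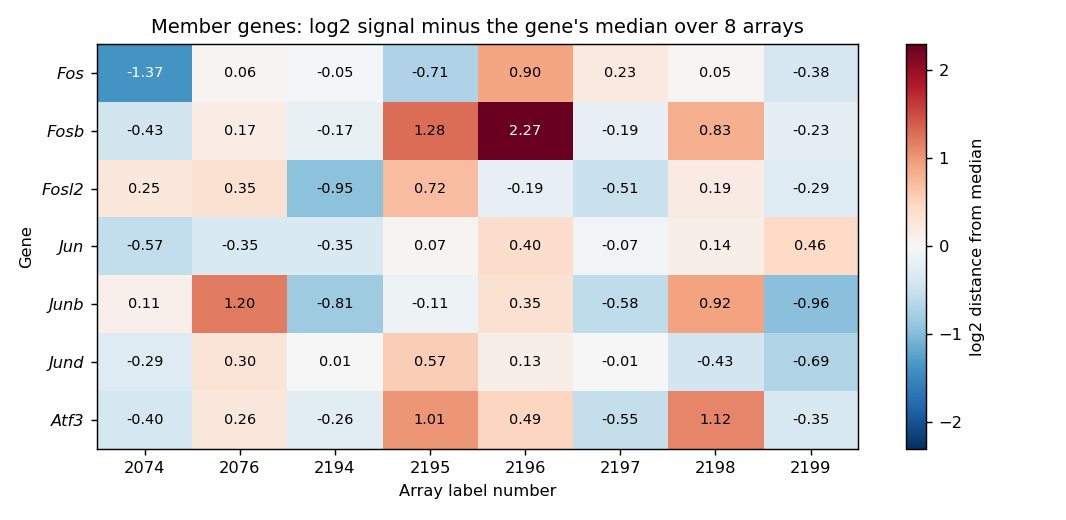
Distance of each gene's brightest probe set from its own median over the 8 arrays, on the log2 scale, with values under the floor raised to it. Fosb and Atf3 are above their medians on the same 4 arrays, 2076, 2195, 2196 and 2198, while the JUN genes differ in theirs.

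FOS genes were set beside JUN genes with a score for each family, the mean over its 3 genes of the log2 distance from the gene's median. The FOS score was -0.52, 0.19, -0.39, 0.43, 0.996, -0.15, 0.36 and -0.30. The JUN score was -0.25, 0.39, -0.38, 0.17, 0.30, -0.22, 0.21 and -0.40. Both were above 0 on arrays 2076, 2195, 2196 and 2198 and below 0 on the other 4, so their signs were the same on all 8 arrays. The FOS score was highest on array 2196 and the JUN score on array 2076. The same mean over the 9 granulosa markers was lowest on these arrays, at -0.50 on 2196 and -0.30 on 2076, and highest on array 2074, at 0.37. Single granulosa markers differed, as on array 2196 Fst had its highest signal, 180172, and Hsd17b1 its lowest, 1069. The summed granulosa signal was lowest on another array, 2194. Endothelial and oocyte markers were highest on array 2195, at 1.01 and 0.93, where Fosl2 and Jund also had their highest signals. Of these markers 3 of 4 endothelial and 2 of 2 oocyte ones were at the floor on 1 array or more. Array 2195 also had the highest floor, 470.9, and the highest median signal, 686.2. The part of this raised low end in the marker values was not tested. The part of cell makeup in the scores was not tested. Inner ranges on the log2 scale were 0.82 for the FOS score and 0.68 for the JUN score.

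The FOS score minus the JUN score was -0.27, -0.19, -0.01, 0.25, 0.70, 0.07, 0.15 and 0.10. It was above 0 on 5 of 8 arrays and largest on array 2196, where Fosb alone was 2.27 above its median and Fos 0.90. With only genes measured on all 8 arrays, which left out Fosb, the difference on array 2196 was 0.061. The larger FOS score on that array thus came mostly from Fosb. Signs near 0 turned with the settings. After quantile normalization the difference was above 0 on 3 of 8 arrays, with -0.05 on array 2198 and -0.06 on array 2199. Without array 2199 it was above 0 on 3 of 7 arrays and without array 2194 on 4 of 7, array 2197 turning below 0 in both. It was largest on array 2195 with the mean of probe sets or the median of members. With only genes measured on all 8 arrays it was above 0 on 3 of 8 and largest on array 2197, at 0.084. On array 2195 the difference was 0.25, but it was -0.17 without Fosb and 0.77 with the mean of each gene's probe sets.

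Equal signs of the scores did not mean that the single genes moved together. Within the JUN family each of the 3 pairs lay on the same side of its medians on 4 of 8 arrays. Within the FOS family it was 4 to 6 arrays, and for the 9 pairs of a FOS with a JUN gene also 4 to 6. Each member was above its median on 4 arrays, so these counts can only be even. How they run over pairs of all measured genes was not counted. Some sides rested on small log2 distances, as for Jund with 0.015 on array 2194 and -0.015 on array 2197. The sign count of the scores was 6 with Junb left out of its family and 7 with Jund or Fosl2 left out. It stayed at 8 with Fos, Fosb or Jun left out. Atf3 was on the same side as Fosb on all 8 arrays and as each other member on 6. The 4 arrays on which Fosb and Atf3 were above their medians were shared by 1.37% of the other 10512 measured genes.

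**Figure D3:**
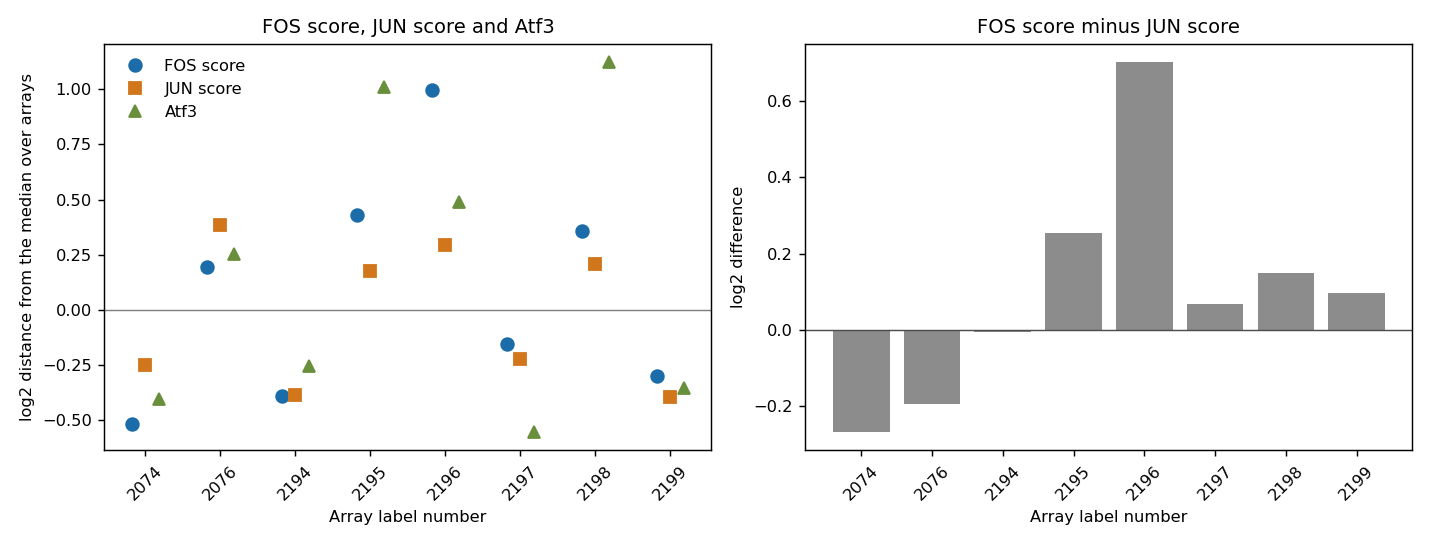
Left, the FOS score, the JUN score and Atf3 on each array as log2 distance from the median. Right, the FOS score minus the JUN score, which is 0.70 on array 2196 and between -0.27 and 0.25 on the other 7 arrays.

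Likeness of 2 genes was measured as the mean absolute difference of their log2 distances from their own medians over the 8 arrays, with small values for like courses. All genes share the arrays and their scaling, so these are descriptions. Atf3 was at 0.38 from Fosb and ranked 8 of 10512 genes, against a median of 0.78 over all genes. In the other direction Fosb ranked 403 by its likeness to Atf3, with 13 when array 2196 was left out and 1439 when array 2074 was. The rank of 8 became 63 with a floor at the 25th percentile and 7057 with no floor, and leaving out 1 array gave ranks between 5, without array 2198, and 92, without array 2074. It therefore rested on values raised to the floor. Fosl2 ranked 516 by likeness to Junb, with 143 without array 2195 and 1465 without array 2194. Junb in turn ranked 9359 for Fos and 9758 for Jun, farther than most genes. The nearest member to Fos was Jun, at rank 2069, but this was 634 without array 2199, 3637 without array 2074 and 8104 with the mean of each gene's probe sets. The nearest to Jun was Jund, at rank 6088. Ranks between members thus moved widely with single arrays.

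Genes outside the family lay closer to each member. Nearest to Fos were Mrps12 at 0.16, Hars1, Zfp972, Zfp347 and Wdr43 at 0.26. Nearest to Fosb were Ccdc85b at 0.33, Ranbp17, Rgs14, Tprkb and Slc9a2 at 0.37, and of these all but Tprkb were at the floor on 2 to 6 arrays. Kdsr at 0.12, Mfsd3, Cntnap5bl1, Oxa1l and Mrps18a at 0.18 were nearest to Fosl2. For Jun they were Nyap1 at 0.08, Id1, Car5b, Rhox5 and Pold3 at 0.10. For Junb they were Gstm2 at 0.24, Heatr1, Abitram, Tubb6 and Mapk9 at 0.29, Mapk9 being the gene of the JUN kinase JNK2. Mapk9 was at the floor on 3 arrays, and Gstm2 and Abitram were on 2. Leprotl1 at 0.07, Enoph1, Socs1, LOC102548944 and Alkbh1 at 0.13 were nearest to Jund. For Atf3 they were Crybb3 at 0.10, Nrn1, Mtarc1, Adamtsl2 and Fcgr3a at 0.19, each at the floor on 3 or 4 arrays.

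Other genes of basic leucine zipper proteins varied about as much as genes at large. Of 17 measured, out of 22 listed, 5 or 29.4% reached 2-fold, against 29.8% of all measured genes, with medians of 1.67-fold and 1.71-fold. Fosl1, the remaining FOS family gene, gave 1136, 2721, 1915, 2441, 1074, 824, 1639 and 678, an inner range of 2.96-fold. It was highest on array 2076 and lowest on array 2199, as Junb was. The mean log2 distance of the whole list had its extremes on the same arrays, at 0.46 and -0.31. Batf3 had at least 2.87-fold, with 3 arrays at the floor, and Maf 1.16-fold. Of the genes listed, Batf, Batf2 and Atf2 were not measured.

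Kinases and factors upstream of FOS and JUN reached 2-fold in 6 of 17 measured genes or 35.3%, against 29.8% of all measured genes, with a median of 1.77-fold. Prkaca, a catalytic subunit of the cAMP-dependent kinase, had 3.45-fold and was low on arrays 2197 with 533 and 2198 with 708, against 1605 to 2864 on the other 6. Mapk8, the gene of the JUN kinase JNK1, had 2.99-fold and was lowest on array 2076 with 752 and highest on array 2198 with 5447. Elk1, a partner of serum response factor at the Fos promoter, had 1.26-fold.

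Feedback regulators of the immediate-early response reached 2-fold in 8 of 16 measured genes or 50.0%, against 29.8% of all measured genes, with a median of 2.0-fold. Dusp6, a MAP kinase phosphatase, gave 11278, 41410, 32192, 40334, 26651, 14486, 26047 and 14791, an inner range of 2.78-fold. Nfkbia, the inhibitor of NF-kappaB, had 2.77-fold, with 414 on array 2196 and 533 on array 2194 as its lowest values and 1875 on array 2195 as its highest. Zfp36l1, which promotes mRNA decay, had 1.19-fold. The mean log2 distance of the list was highest on array 2076, at 0.62, and lowest on array 2199, at -0.61, the arrays at which Junb also had its extremes. Array 2199 was lowest too for the lists of basic leucine zipper, AP-1 target, stress and dissociation genes. Array 2076 was highest too for the basic leucine zipper and dissociation lists. How many of all genes have these extremes was not counted. The count of 8 was 4 without array 2199 and 5 without array 2074, 2076 or 2194. The share of all measured genes was lower as well, at 23.95% without array 2199, 18.9% without 2074, 18.7% without 2076 and 24.7% without 2194.

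Reported AP-1 target genes reached 2-fold in 6 of 14 measured genes or 42.9%, against 29.8% of all measured genes, and the median of 1.71-fold was that of all genes too. Plat, the tissue plasminogen activator gene, gave 23577, 73032, 23719, 19448, 57801, 32774, 57961 and 13570, an inner range of 2.98-fold. It was above its median on the same 4 arrays as Fos, 2076, 2196, 2197 and 2198, which held for 0.571% of other genes. For Fos this set turned on small log2 distances, 0.057 on array 2076, 0.051 on array 2198 and -0.051 on array 2194. Plau, the urokinase gene, took another course, with 3.11-fold, 1035 on array 2076 as its lowest and 8162 on array 2194 as its highest value. Gja1, a gap junction gene, had 1.27-fold. Without array 2076, or without array 2194, the count of 6 was 3, with 18.7% and 24.7% of all genes.

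Genes of the stress response in which Atf3 takes part reached 2-fold in 5 of 14 measured genes or 35.7%, against 29.8% of all measured genes, with a median of 1.75-fold. Ppp1r15a, the stress-induced phosphatase subunit GADD34, gave 2179, 3696, 1332, 554, 1411, 746, 1698 and 504. Its inner range was 3.93-fold, and it was above its median on the same 4 arrays as Junb, 2074, 2076, 2196 and 2198, as 2.40% of other genes were. On array 2195 Ppp1r15a was among its lowest values where Atf3 was among its highest. Gadd45g had at least 3.22-fold and Herpud1 1.2-fold. Without array 2074, or without array 2195, the count of 5 was 3, with 18.9% and 21.9% of all genes. For the basic leucine zipper genes it was 2 without array 2074 or 2076, with 18.9% and 18.7% of all genes.

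Immediate-early genes also respond to the handling of tissue, so genes known to be induced by dissociation, the members left out, were followed as a list. Of 15 measured, 7 or 46.7% reached 2-fold, against 29.8% of all measured genes, and 7 of the 15 stand in other lists here. Their mean log2 distance was 0.54 on array 2076 and 0.39 on array 2198, and between -0.26 and -0.08 on the other 6 arrays. These were the arrays with the highest Junb signals, and the part of handling in the Junb values was not tested. Egr1, an immediate-early zinc finger factor, gave 12421, 91057, 32103, 22513, 63868, 25274, 49469 and 16018. Unlike the list mean, it was higher on array 2196 than on array 2198. It shared 3 of its 4 arrays above the median with Junb, as many genes of the other lists did. Nr4a1, an immediate-early nuclear receptor, gave 3566, 6338, 2955, 2744, 3391, 1373, 6942 and 2908. Its 4 arrays were those of Junb, which held for 2.40% of other genes, erythroid and stroma markers among them. The heat shock gene Hspa1a had 4.54-fold, highest on arrays 2198 with 7519 and 2197 with 3109, and Zfp36 had 1.43-fold. The list mean on array 2198 takes in this high Hspa1a signal. Without array 2076 the count of 7 was 4, with 18.7% of all genes.

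**Figure D4:**
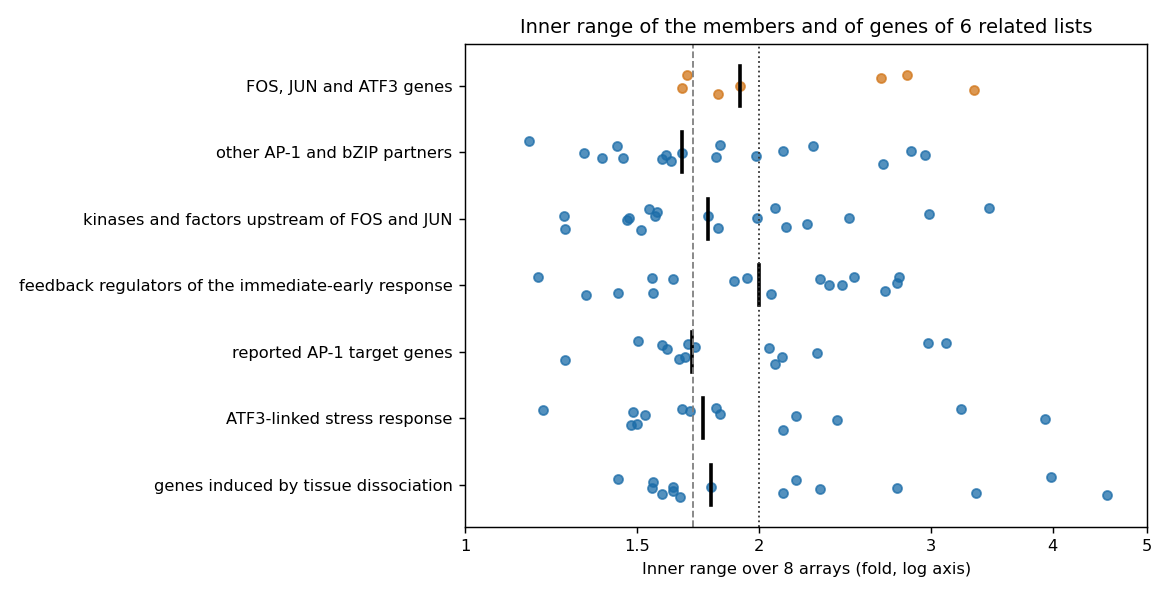
Inner range over 8 arrays (fold, log axis) of the 7 members and of the measured genes of 6 related lists, 1 point per gene. Thick bars are medians, the dashed line is the median over all measured genes, 1.71-fold, and the dotted line 2-fold. Junb, Fosb and Atf3 lie beyond 2-fold and the other members below it.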

How the data were processed

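Total RNA of granulosa cells was labelled with biotin and hybridised to Affymetrix rat arrays, per the labels' protocols. The deposited table holds 31099 probe sets, 57 of them controls, as signal intensity on a linear scale. The submitters' processing notes name MAS5 without a version. With the top and bottom 2% of values removed, array means were 1500.5 to 1500.6, so arrays had been scaled before deposit. MAS5 gives noisy values at low signal, and detection calls were not used here.

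Signals were put on the log2 scale, scaled to the common median of probe sets above the median on all 8 arrays, which shifted arrays by -0.06 to 0.08, and raised to the array's 40th percentile. Printed signals are scaled and not raised. Of the probe sets 20826 had 1 symbol, 436 had several, and 9780 had none in the annotation. A gene table of GRCr8 held the gene identifier of 20758 of the probe sets with 1 symbol and changed 0 symbols. The brightest measured probe set stood for a gene. Probe sets with _s_at in their ID can match several transcripts.

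Named are all members, the 5 genes most like each, and the 2 widest and the narrowest gene of each list outside the cell type markers, with Egr1 and Nr4a1. Of the markers Fshr, Ptprc, Fst and Hsd17b1 are named after their values were seen, as are Batf, Batf2 and Atf2 because they were not measured. The members and lists were chosen with earlier results of these data known. No sample has a group, so no test and no p-value is given. The steps were tested on simulated data with Python 3.11.15, numpy 2.4.6 and pandas 2.3.3. Only bright genes were given simulated shifts, so the recovery of shifts near the floor was not tested. Alternatives were other scalings, floors, filters and probe set rules, the full range, and leaving out arrays.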

Additional observations from a re-analysis of the deposited data

Results flagged for a closer look

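One value stood apart among the 13 probe sets of the members and the 3 scores. The Jund probe set 1387762_s_at was far higher on array 2195, at 1193, than on the next array, 2199, at 388.8. With values under the floor raised to it, the gap to the other 7 arrays was 0.759 of the whole log2 range. This lay above Dixon's critical value for 8 arrays. Unraised signals ran down to 19.8, so the ratio rested on the floor. The probe set did not count as measured and was at or under the floor on 6 arrays. Chance flags about 1 in 20 series of normally distributed values, a rate that does not hold where values are raised to a floor. In all, 16 series were examined. The next highest ratio was 0.46, for the FOS minus JUN difference on array 2196.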

How the results depend on the processing

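The number of arrays limits the precision, and signals near the floor have no order, which limits Atf3, the dimmer Fos and Fosl2 probe sets and most of Fosb. No paired analysis was possible because the labels give no groups. The count of members at 2-fold was 3, against 1 when genes had to be measured on all 8 arrays, which drops Fosb and Atf3, 5 with the mean of probe sets and 7 with the full range, at which 71.4% of all genes passed. It was 4 without scaling, which brought Fos to 2.03-fold, and 2 after quantile normalization. On the log2 scale the full range was 2.27 for Fos, 2.70 for Fosb, 1.67 for Fosl2 and 1.26 for Jund. Atf3 had 2.34 with a floor at the 25th percentile and 3.37 with none, and Jun 1.197 with the mean of probe sets. The FOS minus JUN difference on array 2195 was -0.17 with genes on all 8 arrays, 0.77 with the mean of probe sets and 0.65 with the median of members. It was 0.061 on array 2196 with genes on all 8 arrays and 0.40 on array 2199 with the median of members. The scores had the same sign on 7 of 8 arrays with the mean of probe sets and on every array under the other scalings, floors and filters, the median of members and each smaller set of arrays. With the full range the list counts were 12 for basic leucine zipper genes, 14 for upstream kinases and factors, 15 for feedback regulators, 12 for AP-1 targets, 9 for the ATF3-linked stress genes and 13 for the dissociation genes. Over arrays 2194 to 2199 alone they were 2 for basic leucine zipper genes, 3 for feedback regulators, 2 for AP-1 targets, 3 for stress genes and 4 for dissociation genes, and with genes on all 8 arrays 4 for feedback regulators and 2 for stress genes. The share of all measured genes at 2-fold moved too, to 11.99% over arrays 2194 to 2199 and 19.3% with genes on all 8 arrays, against 29.8%. Leaving out 1 array at a time gave 2 to 5 for basic leucine zipper genes, 4 to 8 for feedback regulators, 3 to 6 for AP-1 targets, 3 to 5 for stress genes and 4 to 7 for dissociation genes, while the share of all genes was 18.7% to 25.1%. Leaving each FOS or JUN gene out of its family was added after seeing the data. The causes were not tested, apart from the dropped genes named above.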

Other observations

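The JUN scores of the 8 arrays, which the labels put in no group, left a gap between -0.22 and 0.17, and their next widest gap was 0.13. The FOS scores left a gap between -0.15 and 0.19, but their widest gap, 0.57, lay below the single highest array, 2196. Both dim Jund probe sets had their highest signals on array 2195, 1193 and 510.5, where the floor was highest.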
